A study of Mus musculus with 8 samples.

Results

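The inflammasome and gasdermin genes comprised 10 genes, Nlrp3, Nlrp12, Nlrc4, Naip5, Aim2, Pycard, Casp1, Casp4, Gsdmd and Gsdme, taken by name from the array's annotation. They were read by 11 of the 34472 probe sets, Gsdmd by a pair and every other gene by 1 probe set. All 11 probe sets passed the filter on dim signals and stood among the 14002 tested, which covered 13296 genes. The RNA came from neutrophils of mouse air pouches injected with lipopolysaccharide (LPS), a dorsal skin pouch into which neutrophils migrate. The Arf6 conditional knockout (cKO, flox+/+Cre+/+) had 3 arrays, the Cre control (flox-/-Cre+/+) had 2 and the flox control (flox+/+Cre-/-) had 3. The cKO and the flox control share the floxed Arf6 allele, the cKO and the Cre control share Cre, and all 3 genotypes received LPS. Each array held RNA pooled from 5 mice, so the spread between single mice was not measured, and the sources used here give neither the promoter that drives Cre nor the age of the mice.

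Inflammasomes are cytosolic complexes that activate inflammatory caspases. Sensor proteins detect danger or microbial products, the adaptor ASC (gene Pycard) links many of them to caspase-1, and caspase-1 matures interleukin 1 beta and interleukin 18. Mouse caspase-11 (gene Casp4) instead binds cytosolic LPS itself. Both caspases cut gasdermin D, whose freed part forms pores in membranes, and in neutrophils these pores can release cytokines without rapid lysis.

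The members lie on chromosomes 11 (Nlrp3), 7 (Nlrp12 and Pycard), 17 (Nlrc4), 13 (Naip5), 1 (Aim2), 9 (Casp1 and Casp4), 15 (Gsdmd) and 6 (Gsdme) in RefSeq (GRCm38.p6).

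The arrays had medians between 5.41 and 5.48 on the log2 intensity scale and highest readings between 14.10 and 14.17. The levels of Arf6 followed the genotype labels, with probe set 17275925 between 6.06 and 6.49 in the cKO against 7.68 to 8.20 in the controls (limma, log2 difference -1.67, adjusted p = 0.0122). The other Arf6 probe set read 6.13 to 6.49 in the cKO against 6.20 to 6.81 in the controls (-0.15, adjusted p = 0.816). The free-text source field of each sample names another genotype than its genotype label does, and the labels were followed. Of 14 neutrophil markers 13 had a probe set and all 13 passed the filter, and Ly6g read between 10.54 and 11.47. A pair of pools stood apart in sex-linked transcripts: flox control replicate 1 read 5.46 for Xist, where the other arrays read at least 7.84, and cKO replicate 1 read 4.08 for Eif2s3y, where the others read at least 8.66. Casp1, Gsdmd, Nlrc4 and Gsdme are also given without these pools.

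Promoter sequence is shown for 3 genes whose levels moved together over the arrays (Casp1, Casp4 and Nlrc4) and for Gsdme, the gene with the widest range. Each line gives the 250 bases before the annotated start in RefSeq (GRCm38.p6), 5′ to 3′ on the gene's own strand. The windows are chr9:5298267-5298516 (plus strand) for Casp1, chr9:5308599-5308848 (plus) for Casp4, chr17:74459109-74459358 (minus) for Nlrc4 and chr6:50261770-50262019 (minus) for Gsdme. Capitals mark matches, on either strand, to an NF-kB motif (GGG and CC with any 5 bases between) or the PU.1 core (GAGGAA), and no match to one overlaps a match to the other.

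Casp1: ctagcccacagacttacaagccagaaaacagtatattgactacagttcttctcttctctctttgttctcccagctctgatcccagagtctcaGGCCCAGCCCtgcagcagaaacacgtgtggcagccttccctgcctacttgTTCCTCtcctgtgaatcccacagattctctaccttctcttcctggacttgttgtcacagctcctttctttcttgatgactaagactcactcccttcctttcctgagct

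Casp4: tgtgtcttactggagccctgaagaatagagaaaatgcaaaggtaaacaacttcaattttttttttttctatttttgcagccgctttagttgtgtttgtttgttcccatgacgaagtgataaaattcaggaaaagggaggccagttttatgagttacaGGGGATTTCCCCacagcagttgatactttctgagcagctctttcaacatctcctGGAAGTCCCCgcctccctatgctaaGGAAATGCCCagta

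Nlrc4: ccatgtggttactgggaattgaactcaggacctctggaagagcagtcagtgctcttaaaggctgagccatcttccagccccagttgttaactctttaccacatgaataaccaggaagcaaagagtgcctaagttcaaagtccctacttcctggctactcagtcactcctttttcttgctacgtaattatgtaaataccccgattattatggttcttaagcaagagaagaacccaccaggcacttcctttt

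Gsdme: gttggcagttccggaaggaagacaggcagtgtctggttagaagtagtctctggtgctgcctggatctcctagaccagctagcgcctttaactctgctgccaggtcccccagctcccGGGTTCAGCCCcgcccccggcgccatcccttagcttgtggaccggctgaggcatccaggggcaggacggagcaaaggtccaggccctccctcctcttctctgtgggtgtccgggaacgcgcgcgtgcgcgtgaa

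The Casp4 window, that of the leading of its 2 annotated starts, held 3 separate stretches that match the NF-kB motif, and 6.09% of 32851 promoter windows held 3 or more. At least 1 such match stood in 45.8% of all windows, and Casp1 and Gsdme each had 1 stretch, while Nlrc4 had no match to either motif. Of the members not shown, Naip5 and start 2 of Nlrp3 also had 1 NF-kB stretch each, and Aim2, Nlrp12, Pycard and start 1 of Nlrp3 had none. The PU.1 core, which 23.3% of windows hold, stood in the Casp1 window and in those of Aim2, Pycard and Nlrp3. An interferon-stimulated response element core (GAAA, any 2 bases, GAAA, in 2.98% of windows) stood in no window of the 9 members with promoter sequence. A gamma-activated site (TTCNNNGAA, 7.02%) stood in that of Nlrp12 alone among them. Casp1 and Casp4 are next to each other on chromosome 9 in the order of tested genes.

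A difference from both controls is taken here from the mean of the Cre control mean and the flox control mean. In that comparison, none of the 11 probe sets passed the threshold of 0.05 on the adjusted p (limma with Benjamini-Hochberg adjustment over all tested probe sets), where 0.00714% of all probe sets did. An unadjusted p under 0.05 was reached by Nlrc4 and Gsdme, 2 of the 11, beside 9.52% of all. Of the 10 genes, 7 lay below the control mean and 3 above it, with a median log2 difference of -0.15, beside a median of 0.01 over all probe sets tested. Of all probe sets tested, 46.6% lay below the control mean. No member had its 3 cKO arrays beyond all 5 control arrays, beside 4.36% of probe sets. Over the 11 probe sets the standard errors (SE) ran from 0.10 to 0.19, and the 95% intervals reached from -0.67 to 0.70.

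**Figure D1:**
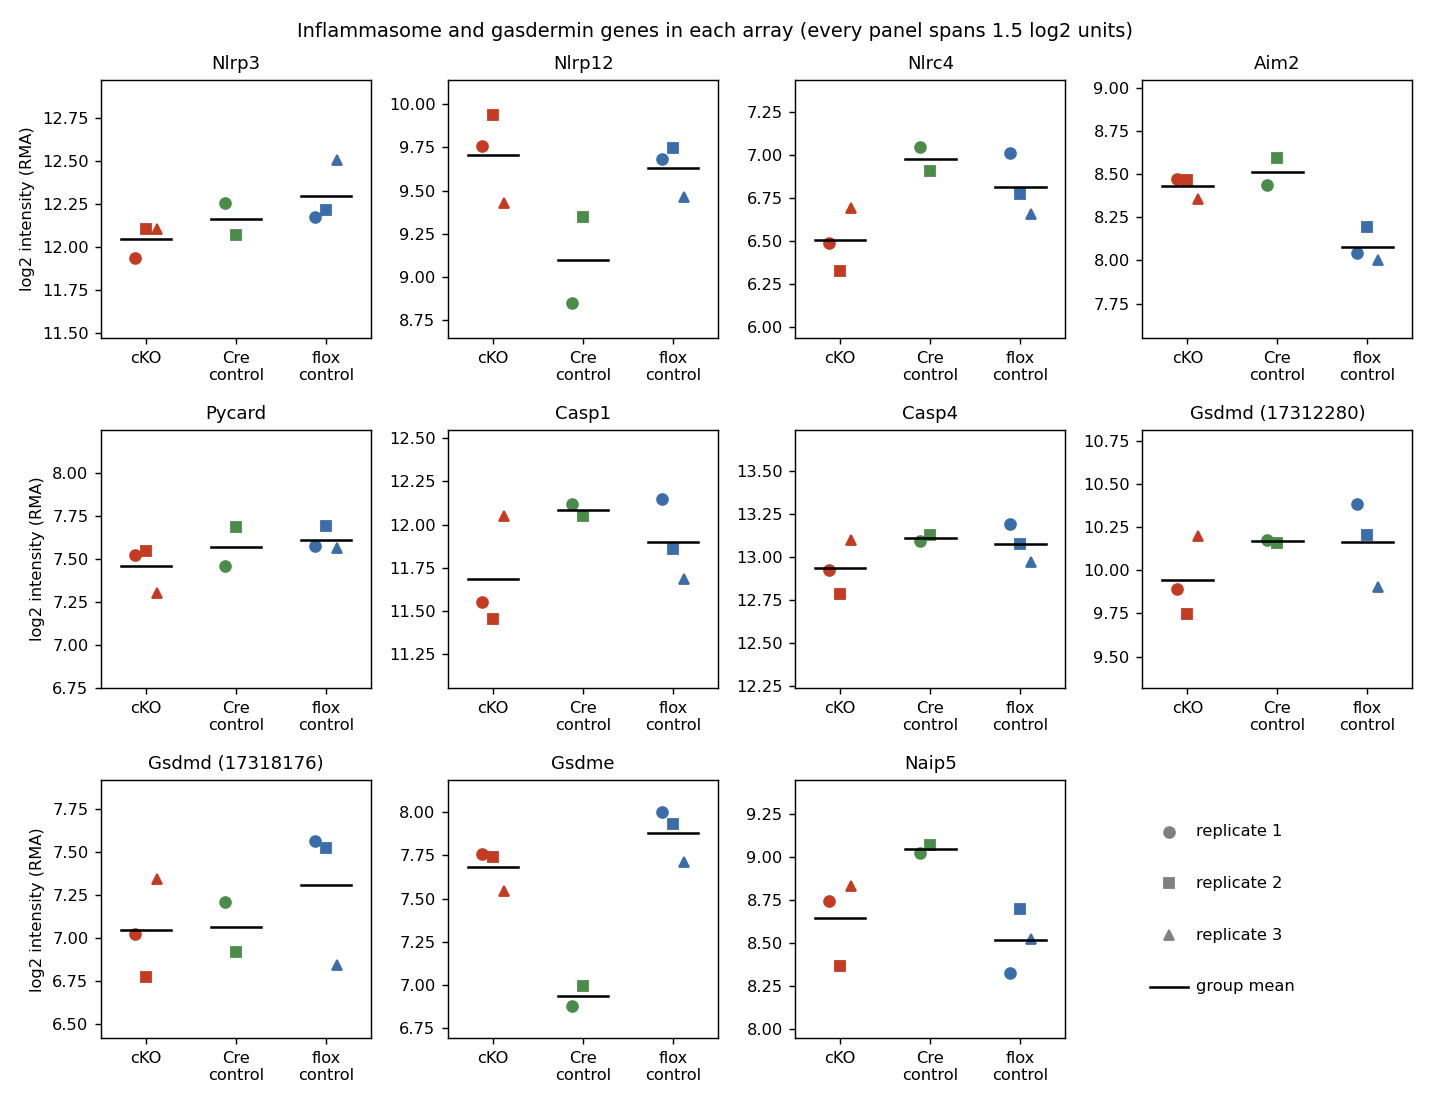
Log2 intensity of each of the 11 probe sets (panels) in every array, by genotype (cKO, Cre control, flox control), with 1 marker shape per replicate and a bar at the group mean, each panel spanning 1.5 log2 units. Gsdme reads 6.88 and 6.99 in the Cre control and at least 7.54 in every other array, and Aim2 lies between 8.0 and 8.19 in the flox control and at 8.35 or above in every other array.

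The sensors, the upstream genes of the pathway, differed among themselves in the order of the genotypes. Nlrp3, the sensor of potassium loss and membrane damage, read 11.94, 12.10 and 12.11 in the cKO, against 12.25 and 12.07 in the Cre control and 12.17, 12.22 and 12.50 in the flox control. The cKO arrays lay below all flox controls and overlapped the Cre controls. The difference was -0.18 (SE 0.12, adjusted p = 0.684, limma) against both controls and -0.25 (SE 0.13, adjusted p = 0.667) against the flox control, so neither passed. From the flox control it was -0.15 without flox control replicate 3.

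Nlrc4, the partner that NAIP proteins engage once they bind bacterial flagellin or secretion system proteins, read 6.49, 6.33 and 6.69 in the cKO. It read 7.05 and 6.91 in the Cre control and 7.02, 6.78 and 6.66 in the flox control. All cKO arrays lay below both Cre controls, and the highest cKO array lay just above the lowest flox control. The difference of -0.39 against both controls (SE 0.13, 95% interval -0.67 to -0.11, adjusted p = 0.39, limma) did not pass over all probe sets, and it ran from -0.49 to -0.30 over the alternatives tried. It was -0.47 (SE 0.16, adjusted p = 0.249) against the Cre control and -0.31 (SE 0.14, adjusted p = 0.603) against the flox control. From the flox control the difference was -0.21 without the pools distinct in sex-linked transcripts.

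Naip5, the flagellin receptor upstream of Nlrc4, had another order of groups. It read 8.75, 8.36 and 8.83 in the cKO, against 9.03 and 9.07 in the Cre control and 8.32, 8.70 and 8.52 in the flox control. Both Cre controls lay above all other arrays, and the cKO overlapped the flox control. The Cre control was 0.53 above the flox control (SE 0.17, adjusted p = 0.19, limma), and the cKO lay 0.40 lower than the Cre control (log2 difference -0.40, SE 0.17, adjusted p = 0.349). That difference was -0.26 without cKO replicate 2. Its neighbour Naip6, a close paralogue, read 8.19 in the cKO, 8.73 in the Cre control and 7.83 in the flox control on average (Cre control minus flox control 0.90, SE 0.23, adjusted p = 0.118). The sources used here do not say which bases the probes of these related genes read, and whether signal is shared between them was not tested.

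Aim2, the sensor of cytosolic DNA, separated the flox control from the other genotypes. It read 8.48, 8.47 and 8.35 in cKO pools and 8.44 and 8.60 in Cre control pools, against 8.04, 8.19 and 8.0 in the flox control. The cKO and Cre control overlapped, and each lay wholly above the flox control. The cKO was 0.35 above the flox control (SE 0.11, 95% interval 0.10 to 0.60, adjusted p = 0.454, limma), and the Cre control was 0.44 above it (SE 0.13, adjusted p = 0.147). These comparisons share the flox control arrays. On chromosome 1 the next 3 tested genes on 1 side of Aim2 belong to the same family of interferon-inducible genes, Ifi214, Ifi213 and Ifi209. They lay 0.63, 1.16 and 0.67 higher in the Cre control than in the flox control (adjusted p from 0.149 to 0.439), and their cKO minus flox control differences were -0.30, 0.09 and 0.07.

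Nlrp12, a myeloid NLR protein that restrains NF-kB signalling and can form an inflammasome in some infections, was lowest in the Cre control. It read 9.76, 9.94 and 9.43 in the cKO, against 8.85 and 9.35 in the Cre control and 9.69, 9.74 and 9.46 in the flox control. The Cre controls lay below all other arrays, and their SD was 0.35 (n = 2). The cKO lay 0.61 above the Cre control (SE 0.20, adjusted p = 0.243, limma) and 0.08 above the flox control (SE 0.17, adjusted p = 0.943). Without Cre control replicate 1 the difference from the Cre control was 0.36, and without replicate 2 it was 0.86. The difference from the flox control ran from -0.04 without cKO replicate 2 to 0.22 without cKO replicate 3.

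The adaptor Pycard varied least of the members, with a range of 0.39 over the 8 arrays. It read 7.53, 7.55 and 7.30 in the cKO, against 7.46 and 7.68 in the Cre control and 7.57, 7.69 and 7.56 in the flox control. All cKO arrays lay below the flox controls by a margin smaller than the spread within the cKO. The difference from both controls was -0.13 (SE 0.11, 95% interval -0.38 to 0.11, adjusted p = 0.766, limma). It was -0.05 without cKO replicate 3 and -0.08 without Cre control replicate 2.

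The caspases and gasdermin D shared a pattern that split the cKO pools. Casp1 read 11.55, 11.45 and 12.05 in the cKO, against 12.12 and 12.05 in the Cre control and 12.15, 11.86 and 11.69 in the flox control. The cKO replicates 1 and 2 lay below every control, and replicate 3 lay among the controls. The difference from both controls was -0.31 (SE 0.16, 95% interval -0.67 to 0.05, adjusted p = 0.591, limma). It was -0.19 without cKO replicate 2, -0.49 without cKO replicate 3 (adjusted p = 0.176) and -0.18 without cKO replicate 1 and flox control replicate 1, the pools distinct in sex-linked transcripts. From the flox control alone the difference was -0.22 (SE 0.18), and -0.02 without these pools. From the Cre control alone it was -0.40 (SE 0.20).

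Casp4 read 12.92, 12.78 and 13.10 in the cKO, against 13.09 and 13.13 in the Cre control and 13.19, 13.07 and 12.97 in the flox control. As for Casp1, cKO replicates 1 and 2 lay below every control and replicate 3 did not. Its difference from both controls was -0.16 (SE 0.11, adjusted p = 0.717, limma), and it was -0.08 without cKO replicate 2 and -0.24 without cKO replicate 3 (adjusted p = 0.445).

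Gsdmd was read by 2 probe sets, which correlated with r = 0.85 over the 8 arrays. The brighter (17312280) read 9.89, 9.75 and 10.20 in the cKO, against 10.18 and 10.16 in the Cre control and 10.39, 10.21 and 9.90 in the flox control. Its difference from both controls was -0.22 (SE 0.14, 95% interval -0.54 to 0.10, adjusted p = 0.689, limma), and it was -0.12 without cKO replicate 2, -0.35 without cKO replicate 3 (adjusted p = 0.352) and -0.14 without the pools distinct in sex-linked transcripts. From the flox control alone the difference was -0.22 (SE 0.16), and -0.08 without those pools. The dimmer (17318176) read 7.02, 6.77 and 7.34 in the cKO, against 7.21 and 6.92 in the Cre control and 7.56, 7.52 and 6.84 in the flox control. Its difference was -0.14 (SE 0.19, adjusted p = 0.878), and leaving out 1 array moved it as far as -0.0048 (without cKO replicate 2) and -0.29 (without cKO replicate 3). Without the pools distinct in sex-linked transcripts it was -0.07. From the flox control alone the dimmer probe set's difference was -0.26 (SE 0.22), and -0.13 without those pools. In the brighter probe set cKO replicates 1 and 2 again lay below every control, and in both probe sets the genotypes overlapped.

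Casp1, Casp4, Gsdmd and Nlrc4 varied together from array to array, also within the genotypes. Over the 8 arrays Pearson's r was 0.95 for Casp1 and Casp4 (Spearman's rho 0.93), 0.97 for Casp4 and Gsdmd (rho 0.79) and 0.93 for Casp1 and Gsdmd (rho 0.79). With Nlrc4 it was 0.93 for Casp1 (rho 0.95), 0.91 for Casp4 and 0.87 for Gsdmd. Of all tested probe sets, 0.164% correlated with Casp1 at least as closely as Casp4 did, and 1.69% correlated with Nlrc4 at least as closely as Gsdmd did. The points share arrays, pools and normalization, so these values describe the 8 arrays only. Without the 2 arrays farthest from the median of the pair's leading gene, r ran from 0.82 to 0.95, and over deviations from the group means from 0.92 to 0.96. Over such deviations r was also 0.94 for Nlrp12 and Pycard and 0.92 for Aim2 and Pycard, so values this high were not particular to the 4 genes. The share of all tested probe sets that reach them over these deviations was not counted. The set of 4 was chosen after these values were seen.

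**Figure D2:**
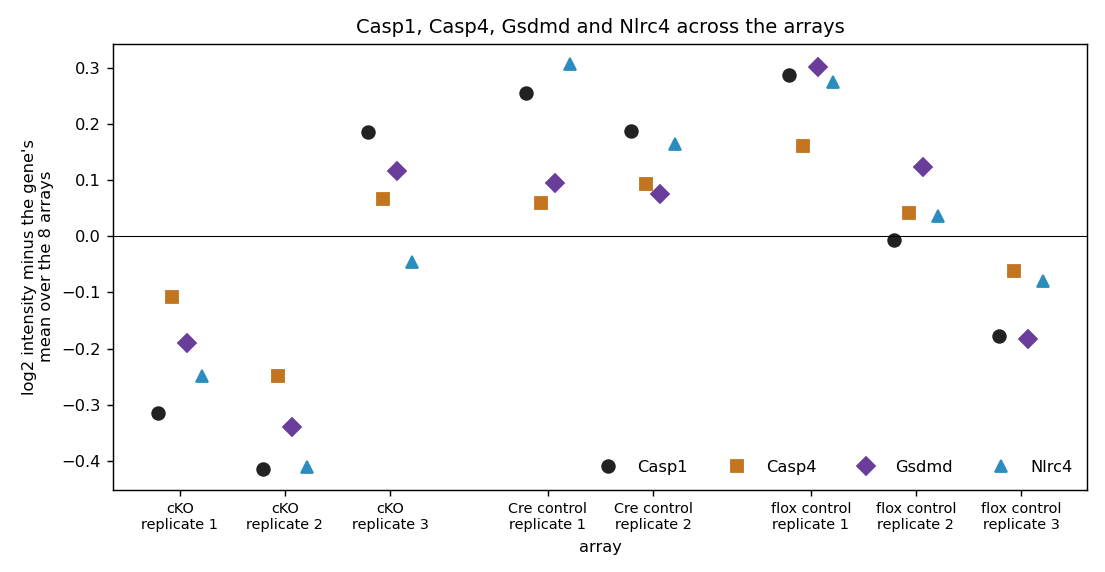
Log2 intensity of Casp1, Casp4, Gsdmd (brighter probe set) and Nlrc4 minus each gene's own mean over the 8 arrays (vertical axis) in every array (horizontal axis), grouped by genotype. All 4 genes are below their means in cKO replicates 1 and 2 and in flox control replicate 3, and cKO replicate 3 lies at 0.08 on average over the 4 genes, beside 0.18 and 0.13 in the Cre control replicates 1 and 2.

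Averaged over these 4 genes, the level relative to each gene's mean was -0.22, -0.35 and 0.08 in cKO replicates 1, 2 and 3, against 0.18 and 0.13 in the Cre control and 0.26, 0.05 and -0.13 in the flox control. Replicates 1 and 2 of the cKO lay below every control array, and replicate 3 lay among them. Other pathway genes that followed this average most closely were Zbp1, a sensor of Z-form nucleic acids (r = 0.96), Naip2, the receptor of secretion system rods (0.95), the interleukin 18 decoy Il18bp (0.92) and the guanylate-binding protein Gbp3 (0.91). The ubiquitin ligase Marchf7 ran against it (r = -0.90). These genes were named after their values were seen, as the extremes among the pathway genes. How many of all tested probe sets reach such an r with this average was not counted.

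Gsdme, the gasdermin that caspase-3 opens, was the single member past the threshold in any comparison, and the comparison was that of the control groups. It read 7.76, 7.74 and 7.54 in the cKO, against 6.88 and 6.99 in the Cre control and 8.0, 7.93 and 7.71 in the flox control. Both Cre controls lay below every other array, and the cKO overlapped the flox control. Between the controls, Gsdme fell 1.93-fold in Cre control pools against flox control pools (log2 difference -0.95, SE 0.14, 95% interval -1.26 to -0.64, adjusted p = 0.025, limma, n = 2 against 3). Of all probe sets 0.486% passed in this comparison.

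The call was lost without cKO replicate 1 (log2 difference -0.95, adjusted p = 0.0563), flox control replicate 1 (-0.89, 0.0661) or flox control replicate 2 (-0.92, 0.0983). With 1 array of the Cre control left, it was lost without replicate 1 (-0.89, 0.309) and without replicate 2 (-1.0, 0.243). It was also lost without the pair of pools distinct in sex-linked transcripts (-0.89, adjusted p = 0.125). Against the Cre control, the cKO lay 0.75 higher in Gsdme (SE 0.14, 95% interval 0.44 to 1.06, adjusted p = 0.11, limma), and against the flox control 0.20 lower (log2 difference -0.20, SE 0.12, 95% interval -0.48 to 0.08, adjusted p = 0.719). With each array left out in turn, the difference from the flox control ran from -0.29 (without flox control replicate 3) to -0.13 (without cKO replicate 3). These comparisons share the cKO arrays with each other and a control group each with the one above. The difference of 0.27 from both controls (SE 0.11, adjusted p = 0.486) averages a value above 0 and a value below 0. None of the 3 tested genes on either side of Gsdme on chromosome 6 passed between the controls, and these 6 lay between 0.03 and 0.40, Cre control minus flox control.

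**Figure D3:**
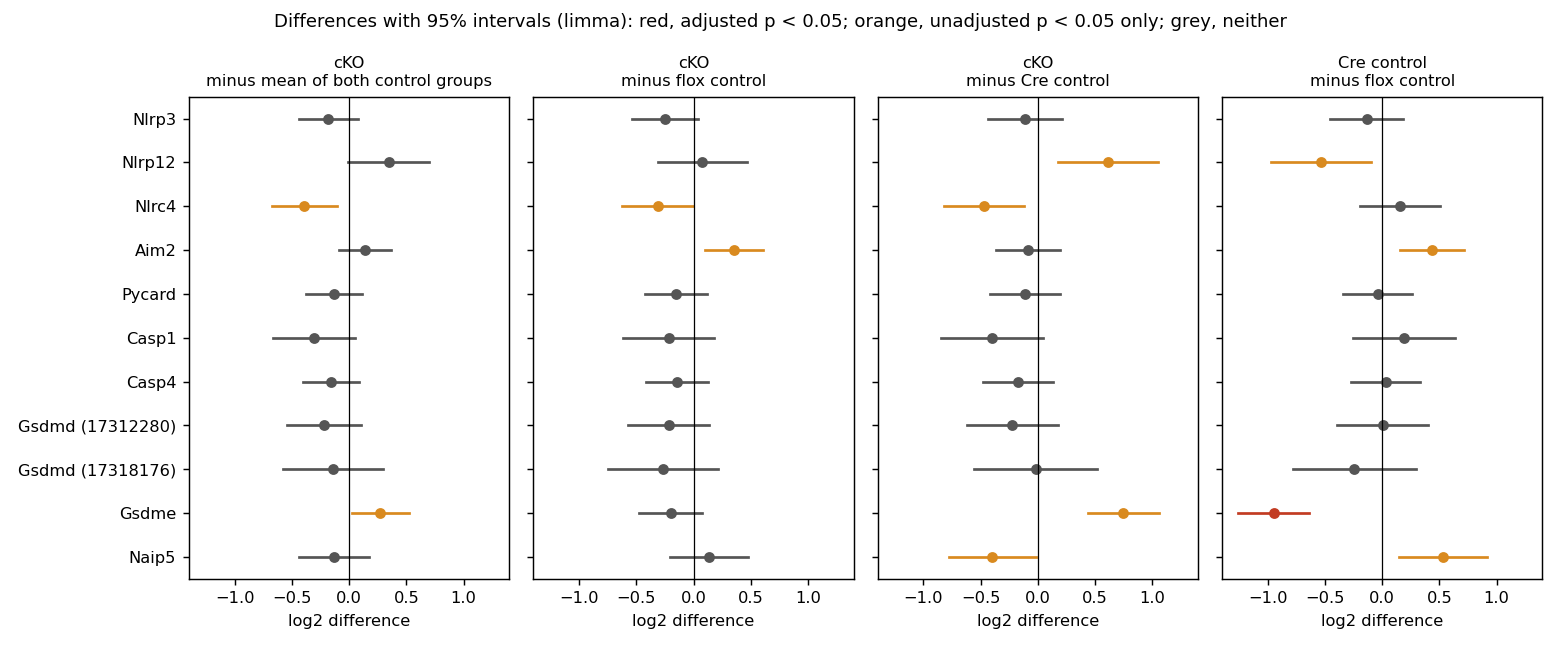
Log2 difference (point) and 95% interval (line, limma) of each of the 11 probe sets in the 4 comparisons, with colour marking adjusted p under 0.05 (red), unadjusted p under 0.05 alone (orange) or neither (grey). Gsdme between the controls (-0.95, Cre control minus flox control) is the single red value, and most intervals of the cKO against both controls include 0.

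The members had different orders of genotypes. Against the flox control, 2 of the 11 probe sets, Aim2 (higher) and Nlrc4 (lower), had an unadjusted p under 0.05 in the cKO, beside 8.26% of all, and 3 of 11 had no overlap between the groups, beside 12.2%. Against the Cre control, 4 of 11 had such a p (Gsdme and Nlrp12 higher, Nlrc4 and Naip5 lower), beside 13.5% of all, and 5 of 11 had no overlap, beside 34.4%. Between the controls, 4 of 11 had such a p (Aim2 and Naip5 higher, Gsdme and Nlrp12 lower in the Cre control), beside 14.7% of all, and the same 4 had no overlap, beside 32.7%. None passed after adjustment in the cKO against the flox control (0.0429% of all) or the Cre control (0.0714%).

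Summed marker signals also differed between the control groups. The 13 neutrophil markers summed to 16.42 to 16.54 in the cKO, 16.32 to 16.38 in the Cre control and 16.49 to 16.52 in the flox control on the log2 scale, lowest in the Cre control without overlap. The summed signal of 10 T and NK cell markers was 9.78 to 10.27 in the cKO, 10.67 to 10.86 in the Cre control and 9.52 to 10.07 in the flox control. Of these 10 markers 8 passed the filter, while Cd4 and Klrb1c did not, and the sum was highest in the Cre control without overlap. Gzmb, which encodes granzyme B, was the brightest of them, with means of 8.90 in the cKO, 9.95 in the Cre control and 8.21 in the flox control. Cd3d had another order (5.89, 5.64 and 6.12 in the same groups), and Cd8a averaged 5.75 in the cKO, 5.59 in the Cre control and 5.40 in the flox control. That of 8 dendritic cell and class II markers was 11.96 to 12.32, 12.13 to 12.22 and 11.49 to 11.91 in the same groups, so it lay below the others in the flox control, as Aim2 did. The brightest of these markers was H2-Ab1, with means of 11.01, 11.13 and 10.44 in these groups. Itgax (9.31, 8.83 and 9.06) and Xcr1 (5.69, 5.54 and 5.59) were lowest in the Cre control, and Zbtb46 (5.31, 5.41 and 5.35) in the cKO. The other markers of this list were lowest in the flox control. The 11 macrophage and monocyte markers summed to 13.95 to 13.98 in the cKO, 13.82 to 13.90 in the Cre control and 13.76 to 14.11 in the flox control. The brightest of them, Cd68 (means of 12.67, 12.32 and 12.49 in these groups), was lowest in the Cre control, as were Ly6c2 and Csf1r. All other markers of this list had their highest mean in the Cre control, among them Adgre1 (10.02, 10.49 and 10.28) and C1qb (8.97, 9.46 and 8.70). The sums of 5 B cell markers (3 tested) and of 8 eosinophil, basophil and mast cell markers (3 tested) overlapped between the genotypes. They ran from 9.12 to 9.86 and from 9.27 to 10.39 over the arrays. The part of these signals in the levels of Gsdme, Naip5, Nlrp12 and Aim2 was not tested, and in RNA from pooled cells, fewer cells of a type and less RNA per cell cannot be told apart.

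The pattern of Gsdme over the 8 arrays was most like that of Stxbp2, a partner of membrane fusion proteins in granule release (r = 0.98), Dhx8, an RNA helicase of splicing (0.98), and Yipf3 (0.98). Stxbp2 averaged 10.11 in the cKO, 9.68 in the Cre control and 10.18 in the flox control. The pattern of Nlrp12 was most like that of the sorting nexin Snx4 (r = 0.99), the glycolytic enzyme Pkm (0.98) and the autophagy enzyme Atg3 (0.98). Pkm averaged 12.87 in the cKO, 12.60 in the Cre control and 12.87 in the flox control. Among the members, Gsdme and Nlrp12 correlated with r = 0.84 (rho 0.76), and Gsdme and Naip5 with r = -0.83 (rho -0.79). Without both Cre control arrays the r of Gsdme and Naip5 was -0.52. These values describe 8 arrays that share pools and normalization, and the likest genes are the top of all those tested.

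Around the members, 77 further pathway genes were listed and 54 were tested. None passed the threshold in any of the 4 comparisons. Against both controls 5 of the 54 had an unadjusted p under 0.05 by limma, or 9.26%, beside 9.52% of all probe sets. There were 2 such genes with the flox control as comparator, 11 with the Cre control and 11 between the controls. These were 3.70%, 20.4% and 20.4% of the 54, beside 8.26%, 13.5% and 14.7% of all probe sets. The median of the 54 against both controls was -0.04.

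Of 11 other sensors tested, 9 lay below the mean of both control groups and 2 above it (median -0.15). Against the flox control alone 6 were lower, and against the Cre control alone 9. Of all tested probe sets 46.6% lay below the mean of both control groups, 47.6% below the flox control and 48.0% below the Cre control. Mefv, which encodes the pyrin sensor, averaged 11.60 ± 0.08 in the cKO (SD, n = 3), against 11.80 ± 0.08 (n = 2) in the Cre control and 11.93 ± 0.15 (n = 3) in the flox control. Its 3 cKO arrays lay below all 5 controls, and its difference of -0.26 (SE 0.11, adjusted p = 0.475, limma) did not pass. Of the 11 other sensors 2, Mefv among them, had no overlap between the cKO and all controls, beside 4.36% of all probe sets. The peptidoglycan sensor Nod1 read -0.42 (SE 0.16, adjusted p = 0.454), Nlrc5, an activator of class I genes, -0.45 (SE 0.20, adjusted p = 0.526) and Naip2 -0.22 (SE 0.11, adjusted p = 0.583). Nlrc5 averaged 10.74 in the cKO, 11.69 in the Cre control and 10.69 in the flox control.

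Of 17 activators and regulators, 9 lay above and 8 below the mean of both control groups (median 0.00). Above the flox control alone were 10, and above the Cre control alone 7. Those with the smallest p were lower: Gbp5, a guanylate-binding protein that promotes inflammasome assembly (-0.46, SE 0.17, adjusted p = 0.43), Gbp3 (-0.60, SE 0.29), the transcription factor Irf1 (-0.28, SE 0.15) and the immunity GTPase Irgm1 (-0.34, SE 0.18). None of these 4 passed by limma, and their SD within the cKO ran from 0.33 to 0.70. Gbp5, Gbp3, Irf1 and Irgm1 read -0.27, -0.22, -0.16 and -0.12 against the flox control alone. Against the Cre control alone they read -0.66, -0.98, -0.40 and -0.56.

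Of 8 cytokine substrates and inhibitors, 5 lay below the mean of both control groups and 3 above it. Against the flox control alone 6 were lower, and against the Cre control alone also 6, but not the same genes. By sign, Il1b was lower against the flox control only (-0.01, SE 0.10, and 0.02, SE 0.11, against the Cre control), with both differences smaller than their SE. It averaged 13.98 in the cKO, 13.96 in the Cre control and 13.99 in the flox control, near the arrays' highest readings (14.10 to 14.17). Hmgb1 was lower against the Cre control only (-0.08, and 0.22 against the flox control). Il18, a caspase-1 substrate, read -0.17 relative to both controls (SE 0.11, adjusted p = 0.67, limma). Its decoy Il18bp read -0.58 (SE 0.18, adjusted p = 0.382) and Il1a, an alarm cytokine of the interleukin 1 family, -0.36 (SE 0.12, adjusted p = 0.389). All cKO arrays of Il1a lay below all controls, as in 1 of these 8 genes, beside 4.36% of all probe sets without overlap in either direction. No tested gene of the activators and regulators, the other caspases and necroptosis genes or the proteases list was without overlap in this comparison. The decoy receptor Il1r2 read 0.11 (SE 0.10).

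Of 8 other caspases and necroptosis genes, 5 lay below the mean of both control groups, among them the necroptosis effector Mlkl (-0.68, SE 0.34, adjusted p = 0.574, limma), Zbp1 (-0.31, SE 0.17), Casp8 (-0.18, SE 0.15) and Casp2 (-0.28, SE 0.24). Mlkl, Zbp1, Casp8 and Casp2 read -0.26, -0.21, -0.10 and -0.06 against the flox control alone. Against the Cre control alone they read -1.10, -0.42, -0.25 and -0.50. Of 10 tested proteases, inhibitors and genes of membrane rupture or repair, 6 lay above and 4 below the mean of both control groups, between -0.11 and 0.13. Of these 10, 8 lay below the flox control and 8 above the Cre control. Elane, the neutrophil protease that can also cut gasdermin D, was dim, between 5.12 and 5.71 over the arrays, and was not tested. Of 8 other gasdermin genes 7 had a probe set, and all 7 read below the median of all values (5.45) in all 8 arrays, so none was tested.

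**Figure D4:**
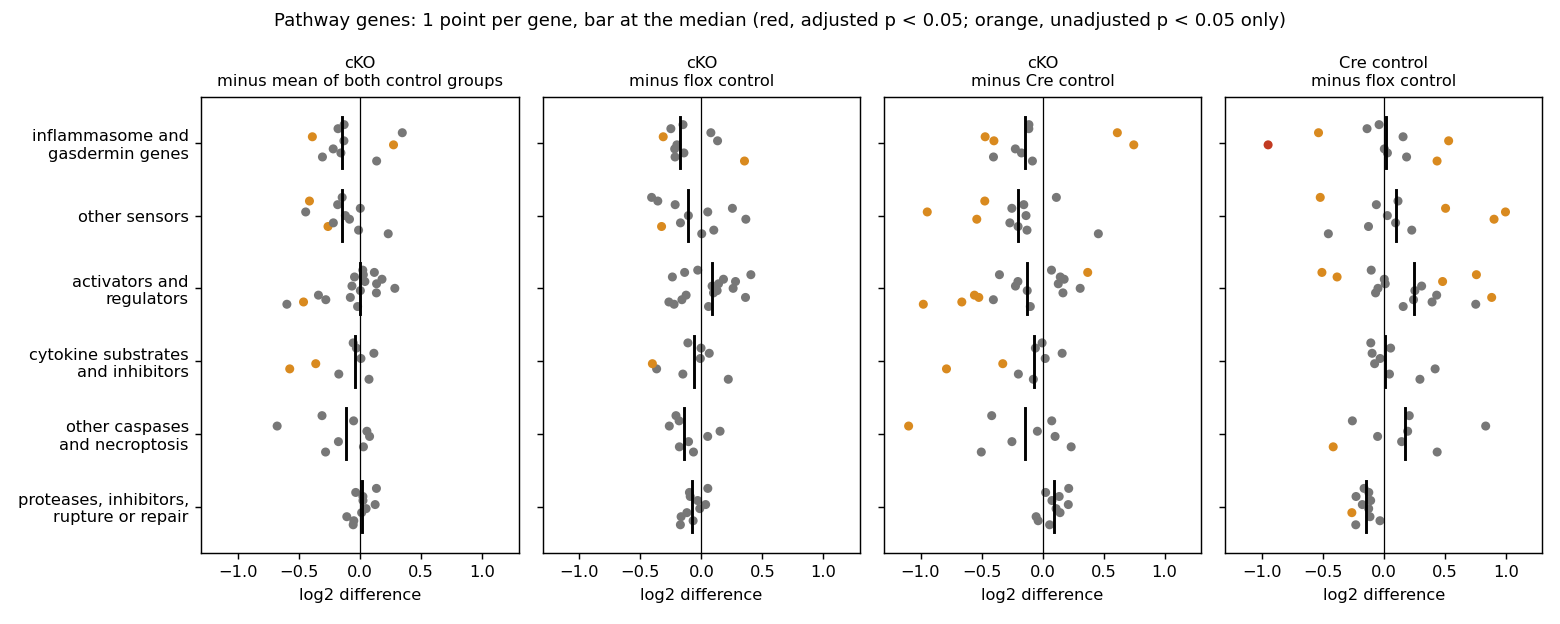
Log2 differences of the pathway genes (points) in the 4 comparisons, by list, with a bar at each list's median, coloured by adjusted p under 0.05 (red), unadjusted p under 0.05 alone (orange) or neither (grey). Gsdme (-0.95, Cre control minus flox control) is the single gene past the adjusted threshold, and the medians against both controls lie between -0.15 and 0.02.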

How the data were processed

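Neutrophil RNA was read on Affymetrix Mouse Gene 2.0 ST arrays. The files hold deposited log2 intensities per probe set, produced by the authors with background subtraction and Robust Multiarray Analysis (RMA) in Affymetrix Expression Console, per the series' design text. The labels give 100 ng of total RNA per array, a minimum RNA integrity number of 7 and 98% Ly6G-positive cells. The software version and the annotation's genome build were not stated. The design gives 3 pools to each genotype, and 2 Cre control arrays were analysed here.

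Probe sets with 1 gene symbol that read above the overall median (5.45) in at least 2 arrays entered limma 3.58.1 (R 4.3.3) together, with the 3 genotypes as groups and no covariate. Two-sided p-values were adjusted over all 14002 of them (Benjamini-Hochberg). Each error is the SE of this fit unless given as an SD. The fit was run on simulated data with independent noise and planted shifts larger than any member difference of the main fit. That run does not bear on how well differences of the size found here are detected. Symbols were updated by gene identifier with RefSeq (GRCm38.p6). All members were named. From each pathway list with tested genes, the 4 genes of smallest p in the comparison with both controls were named. The exception was the list of proteases, inhibitors and membrane rupture or repair, where no tested gene was named. Likeness was Pearson's r over the 8 arrays for the 2 members of widest range. The members, lists, tests and alternatives were chosen with earlier results of these data known. The number of arrays limits the precision. Each replicate is a pool of mice, and p-values measure the spread between these pools only.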

Additional observations from a re-analysis of the deposited data

How the results depend on the processing

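Over 16 alternatives each, covering other filters, scalings, variance models, array weights, fits and arrays left out, the 44 member results gave 704 values. Of these, 11 passed the threshold, all of Gsdme. No member passed in the cKO against both controls or the flox control. Compared with the Cre control, 1 passed with array weights, Gsdme at 0.75 (adjusted p = 0.0285). Between the controls the number of members past the threshold ran from 0 to 1 with each array left out in turn, and was 0 without the pair of pools distinct in sex-linked transcripts. Without Casp1's 2 most distant arrays its r with Gsdmd was 0.82. The sign changed in 17 of the 704 values, in 8 results, none of them past the threshold. Over all probe sets, 0 to 31 passed in the cKO against both controls (1 as reported), with 31 reached without cKO replicate 3. With the flox control 0 to 12 passed (6 as reported), with the Cre control 0 to 145 (10) and between the controls 0 to 819 (68), the highest of each with array weights. With 2 or 3 arrays a genotype, the cause of these shifts was not tested. No paired analysis was possible because the labels give each sample a number of its own and none that groups share.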
